A study of Mus musculus with 15 samples.

Results

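The 8 most deeply sequenced RNA libraries of TauT+/+ and TauT-/- bone marrow mesenchymal stromal cells (MSCs) are described here, out of 15 libraries in the series. They were chosen by depth alone, as the libraries with a total count above 60000000 reads on genes. The lowest library above that line had 69764291 counts and the highest below it had 20781070, so no library lay near it. All 8 carry the male label, and the 7 shallower libraries carry the female label, so that labelled sex and depth cannot be told apart between them. The 8 comprise 4 libraries labelled TauT WT (TauT+/+, replicates 1 to 4) and 4 labelled TauT KO (TauT-/-, replicates 1 to 4), called WT1 to WT4 and KO1 to KO4 below, and the question they address is which transcripts differ in MSCs that lack the taurine transporter. The mice were on a C57BL/6J background and, by the methods of the study, carried a global loss of Slc6a6, so that every cell of the animal, and not MSCs alone, lacked the gene. Young adult mice in these experiments were 16 weeks old, while the labels of the libraries give no age. Marrow cells from the long bones of both genotypes were grown in medium with 15% serum and enriched for MSCs by removal of CD45+, Ter119+ and CD31+ cells, and neither genotype received a further treatment. The labels do not say whether replicates came from separate animals, so the p-values below measure the spread between these libraries.

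Taurine is a sulfur-containing amino acid that cells hold at high concentration as an osmolyte and that mitochondria attach to the wobble base of some of their tRNAs. TauT, the product of Slc6a6, carries it into the cell together with sodium and chloride. MSCs of the marrow give rise to osteoblasts and adipocytes and secrete Cxcl12 and stem cell factor, the signals that retain and sustain blood stem cells. Wnt ligands, which act through Frizzled receptors and the co-receptors Lrp5 and Lrp6, are known to favour the osteoblast fate.

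Several libraries went against their labels or stood close to another library. The libraries labelled male WT1 and male KO1 had 824 and 709 CPM (counts per 1000000 of the normalised library size) of Xist, which is transcribed from the inactive X chromosome, and 0.0143 and 0.179 CPM of the Y-linked gene Ddx3y. The other 6 deep libraries had at most 8.15 CPM of Xist, in KO2, and 54.2 to 158 CPM of Ddx3y. These number 1 libraries each had a close twin among the shallow ones. The log2 ratio between libraries had a spread (scaled median absolute deviation over 9102 genes) of 0.0976 between male KO1 and female KO1 and of 0.108 between male WT1 and female WT1, where counting error alone gives 0.0547 and 0.0575. The 8 deep libraries had total counts of 83600000 ± 13600000 in TauT+/+ and 88900000 ± 9200000 in TauT-/- (SD, n = 4 each, exact two-sided permutation p = 0.571, adjusted over 8 library measures 0.762). They were chosen by this same total, so that p only describes them and cannot show that depth was equal. Pairs of deep libraries of the same genotype had spreads of 0.253 to 0.559, and pairs of different genotype 0.256 to 0.624, the lowest of which was WT3 with KO3. The libraries labelled WT and KO with the same number also deviated together from their genotype means, most of all those numbered 3. Values without number 1 or with the pairing by number are therefore given for some of the genes and lists that these change.

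Slc6a6, the targeted gene, was measured in all 8 libraries. It lies on chromosome 6 of GRCm39 at chr6:91660573-91736047 on the plus strand. TauT+/+ libraries 1 to 4 had 1820, 2620, 806 and 580 CPM of Slc6a6, and the TauT-/- libraries had 394, 1250, 533 and 852 CPM in the same order. The ranges overlapped, since KO2 and KO4 lay above WT3 and WT4, while WT1 and WT2 lay above every TauT-/- library. The means were 1460 ± 944 CPM (SD, n = 4) and 757 ± 380 CPM (SD, n = 4), and TauT-/- differed from TauT+/+ by -0.94 ± 0.55 (SE) on the log2 scale (edgeR adjusted p = 0.639). It was -0.61 without the number 1 libraries and -0.53 without WT2. Counts were summed over the whole gene, so they do not show whether the reads of TauT-/- libraries fall in the part of the gene that was deleted, and this level checks the labels only loosely.

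**Figure D1:**
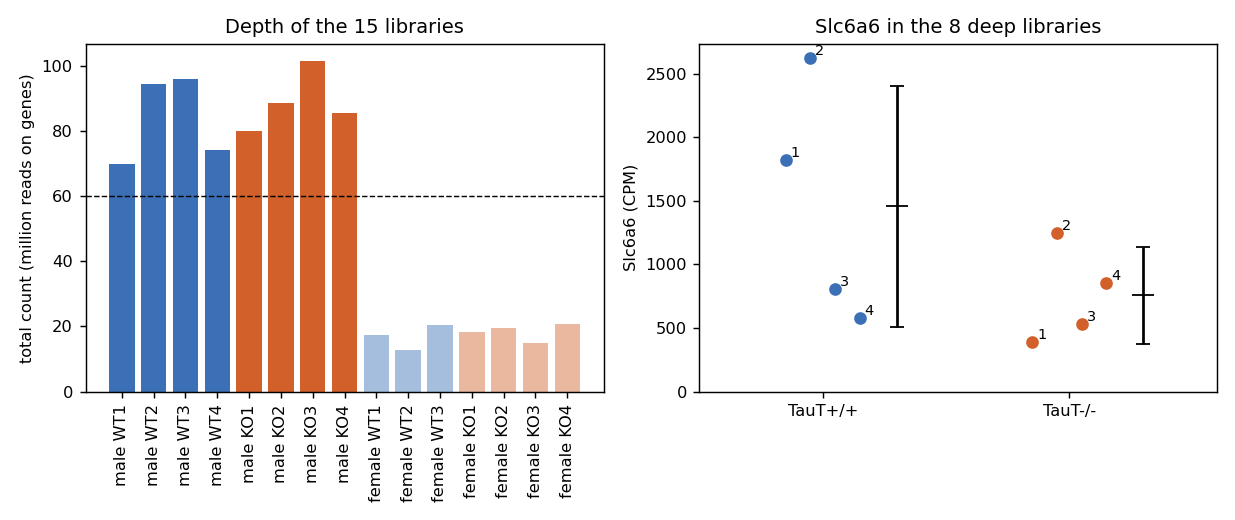
Left, total count of reads on genes in each of the 15 libraries, with the depth line at 60000000 counts; dark bars are the 8 deep libraries, blue TauT+/+ and orange TauT-/-. Right, CPM of Slc6a6 in the deep libraries with replicate numbers and the mean ± SD; WT1 and WT2 lie above the other 6 libraries, among which the genotypes overlap.

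No gene passed an adjusted p under 0.05 between TauT-/- and TauT+/+ in the deep libraries by edgeR's quasi-likelihood test, 0 of 16779 genes tested (0%), and the lowest adjusted p was 0.631. At an unadjusted p under 0.05, 648 genes were higher in TauT-/- (3.86% of those tested) and 630 were lower (3.75%). In 433 genes (2.58%) every TauT-/- library lay above every TauT+/+ library, and in 307 (1.83%) every TauT-/- library lay below. DESeq2 on the same counts called 36 genes higher (0.215%) and 45 lower (0.268%), and 167 higher and 271 lower with the replicate number as a block, while edgeR called 0 with that block. The DESeq2 counts moved with single libraries, to 279 higher and 331 lower without WT3, 95 and 38 without WT1, 61 and 79 without KO1, 49 and 99 without WT4, 20 and 45 without KO2, 24 and 18 without WT2, and 22 and 23 without KO4. The edgeR counts at an unadjusted p under 0.05 were 1076 higher and 1209 lower without WT3, 348 and 396 without WT2, and 336 and 498 without KO4. The gene-to-gene differences below are therefore values with their errors, and none passed the edgeR test.

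The genes that separated the genotypes most were picked from these same libraries, as the 12 higher and 12 lower genes with the smallest unadjusted p among genes that averaged 1 CPM or more and whose genotypes did not overlap. Their levels are thus a description. The adjusted edgeR p was 0.631 for each, and DESeq2 called all 24, with adjusted p from 3.11e-10 to 0.0337.

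Among the higher genes were 3 whose products work in lysosomes or related compartments. Lgmn (chromosome 12 of GRCm39, chr12:102359122-102414682, minus strand) encodes legumain, a lysosomal cysteine protease that cuts after asparagine. Lgmn had 228, 176, 201 and 188 CPM in TauT+/+ libraries 1 to 4 and 338, 384, 328 and 396 CPM in TauT-/- libraries 1 to 4. The spread within a genotype was small, with means of 198 ± 22.1 CPM (SD, n = 4) and 361 ± 33.3 CPM (SD, n = 4) and a log2 fold change of 0.87 ± 0.14 (SE). Dnase2a, the acid DNase of lysosomes, had 25, 16.2, 18.7 and 16.7 CPM in TauT+/+ and 30.6, 38.8, 37.7 and 41.4 CPM in TauT-/- libraries (log2 fold change 0.96 ± 0.18). Napsa, an aspartic protease of the cathepsin D family, was near 1 CPM in TauT+/+ (1.03, 0.371, 1.57 and 0.777) and had 3.49, 18.5, 8.39 and 10.8 CPM in TauT-/- libraries. Its log2 fold change was 3.45 ± 0.62, and KO1 was the lowest TauT-/- library for both Dnase2a and Napsa.

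Transport proteins made up a further group of the higher genes. Fxyd2 (chromosome 9, chr9:45310967-45322004, plus strand) encodes the gamma subunit that modulates the sodium-potassium pump. It had 1.78, 0.202, 2.76 and 2.21 CPM in TauT+/+ libraries and 19.4, 32.7, 30.9 and 54.4 CPM in TauT-/- libraries, a log2 fold change of 4.30 ± 0.73. The lowest TauT-/- library lay well above the highest TauT+/+ one, and WT2 stood lowest by far. Slco4a1 (chromosome 2, chr2:180097984-180116660, plus strand) encodes an organic anion transporter and had 3.51, 0.393, 1.59 and 2.24 CPM against 28.4, 29.7, 14.3 and 67.3 CPM (log2 fold change 4.18 ± 0.73). WT2 was again lowest and KO4 highest. Slc25a10, the mitochondrial carrier of dicarboxylates such as malate and succinate, differed less but with tight replicates, at 20.7 to 23.9 CPM in TauT+/+ and 30.5 to 34.4 CPM in TauT-/- libraries (log2 fold change 0.54 ± 0.11). Slc7a4, a member of the cationic amino acid transporter family, had 0.506 to 1.08 CPM against 1.53 to 4.06 CPM (1.99 ± 0.43), with WT3 apart from the other TauT+/+ libraries.

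The remaining higher genes belong to no one group. Jund, an AP-1 transcription factor subunit, had 170, 193, 161 and 168 CPM in TauT+/+ and 245, 255, 239 and 278 CPM in TauT-/- libraries (log2 fold change 0.55 ± 0.13). Bin3, a BAR-domain protein, had 24.2, 21.2, 23.3 and 21.3 CPM against 31.4, 33.8, 30.3 and 30.8 CPM (0.49 ± 0.11). For both genes the gap between genotypes was larger than the range within either. Rnaseh2c, a subunit of the RNase H2 complex that removes ribonucleotides from DNA, had 13.3 to 15.1 CPM against 20.8 to 29.5 CPM (0.78 ± 0.15). St3gal1, a sialyltransferase, had 37.9 to 62.1 CPM against 75.0 to 117 CPM (0.88 ± 0.20), and Arfgef3 had 0.292 to 1.12 CPM against 2.56 to 4.34 CPM (2.34 ± 0.45).

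Of all genes tested, Aldh1a1 had the smallest unadjusted p (5.01e-05) in the edgeR fit. Aldh1a1 (chromosome 19, chr19:20469539-20622825, plus strand) encodes an enzyme that oxidises retinaldehyde to retinoic acid. It had 13.6, 14.6, 13.7 and 19 CPM in TauT+/+ libraries 1 to 4 and 5.04, 6.12, 3.73 and 4.62 CPM in TauT-/- libraries 1 to 4. The means were 15.2 ± 2.56 CPM (SD, n = 4) and 4.88 ± 0.991 CPM (SD, n = 4), with a log2 fold change of -1.64 ± 0.22 (SE). Frk, a Src-family tyrosine kinase, was similarly tight, with 39.2, 42.5, 32.9 and 33.5 CPM against 17.1, 21.2, 20 and 18.0 CPM (log2 fold change -0.96 ± 0.14).

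Other lower genes encode membrane, matrix and signalling proteins. Tspan9, a tetraspanin, had 113, 92.9, 89.7 and 68.9 CPM in TauT+/+ and 48.3, 52.6, 47.3 and 43.0 CPM in TauT-/- libraries (log2 fold change -0.93 ± 0.16). Prkce, protein kinase C epsilon, had 12 to 19.1 CPM against 6.64 to 8.88 CPM (-0.89 ± 0.21). Adra1d, the alpha-1D adrenergic receptor, had 87.9, 145, 40.0 and 42.8 CPM against 25.5, 28.8, 17.2 and 15.7 CPM (-1.85 ± 0.44). The TauT+/+ libraries thus fell into pairs for Adra1d, with WT1 and WT2 above WT3 and WT4. The same split was seen for Lama1, the laminin alpha-1 chain of basement membranes, with 131, 105, 22.5 and 18.5 CPM against 5.65, 4.72, 12.4 and 10.5 CPM (-3.06 ± 0.71). It was also seen for Zbtb8b, a zinc finger gene, with 45, 32.2, 0.724 and 3.03 CPM against 0.275, 0.0689, 0.445 and 0.0115 CPM (-6.64 ± 1.56). For Lama1 and Zbtb8b the TauT+/+ mean therefore rests mostly on WT1 and WT2, and the gap between the nearest libraries of the genotypes was small.

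The regulators of transcription and chromatin among the lower genes were Tet1, Zfhx4 and Zbtb8b. Tet1, which oxidises 5-methylcytosine in DNA, had 5.39, 5.68, 3.86 and 11.6 CPM in TauT+/+ and 1.92, 2.54, 2.14 and 2.44 CPM in TauT-/- libraries (log2 fold change -1.55 ± 0.37). Zfhx4, a zinc finger homeobox factor, had 30.8 to 70.2 CPM against 15.3 to 24.5 CPM (-1.26 ± 0.27). Sh3tc2, known for its role in Schwann cell myelination, had 2.81 to 8.02 CPM against 0.789 to 1.97 CPM (-2.03 ± 0.43). Nbeal1 had 73.8 to 79.0 CPM against 40.7 to 57.8 CPM (-0.68 ± 0.13), and Plekha5 had 23.3 to 28.2 CPM against 15.3 to 19.2 CPM (-0.59 ± 0.14). In 13 of the 24 genes an exon overlaps an exon of a gene on the other strand in the annotation. The counting was set to use strand, but the sources used here do not say that the library kit marks it, so reads of such partners may not be separated.

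**Figure D2:**
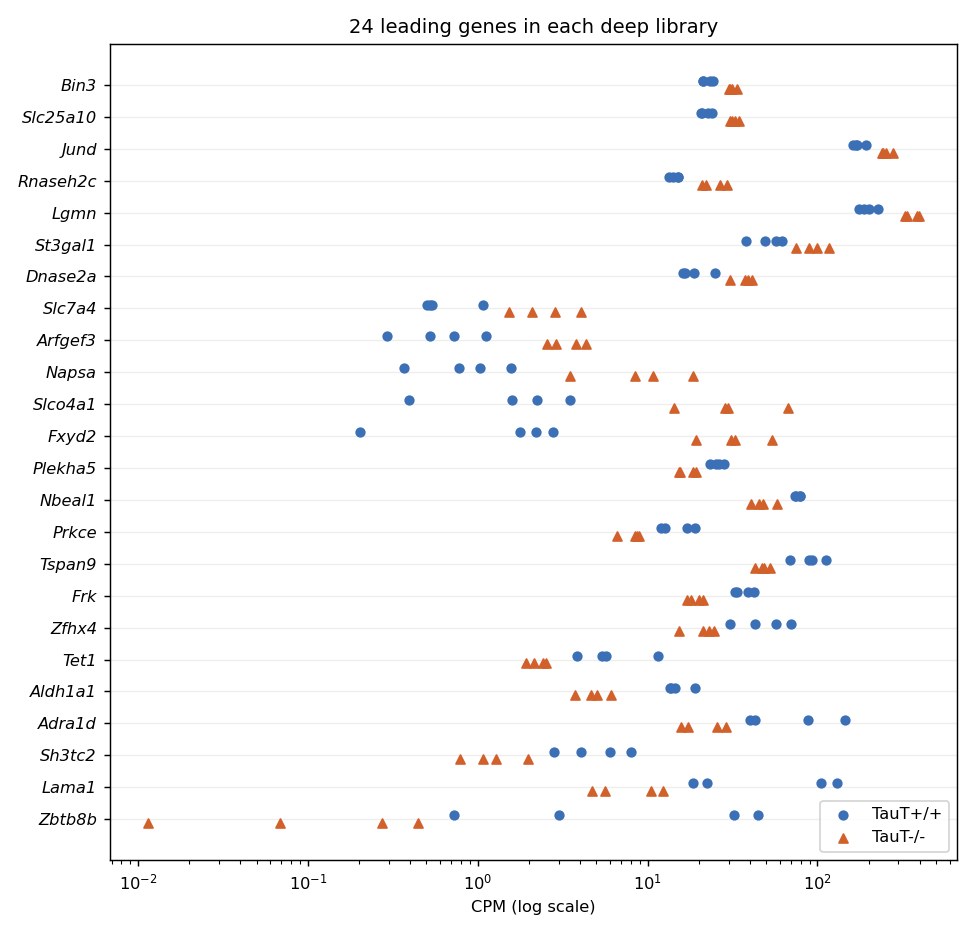
CPM on a log scale of the 12 higher and 12 lower leading genes in each deep library; blue circles are the 4 TauT+/+ and orange triangles the 4 TauT-/- libraries. The genotypes do not overlap in any of the 24, which is part of how the genes were picked; Fxyd2 and Slco4a1 have wide gaps, while Lama1 and Zbtb8b have a TauT+/+ group split into pairs.

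The low-depth libraries that are not twins of a deep one were not used to pick these 24 genes. They are female WT2, WT3, KO2, KO3 and KO4, and the library labelled female WT3 went against its label with 80.7 CPM of Ddx3y. Whether they come from other animals than the deep libraries is not given, and male KO3 with female KO2 had a spread of 0.266, near the lowest among deep pairs. In 23 of the 24 genes (95.8%) the log2 fold change in these 5 libraries had the same sign as in the deep ones, beside 91.5% of the 740 genes without overlap in the deep libraries and 71.5% of all 16779 genes. In 18 (75%) the 5 libraries were also separated by genotype in the same direction, beside 58.6% of those 740 genes and 31% of all genes. All 12 higher genes kept their sign and 11 were separated, the exception being Slc25a10 with 20.9 and 43.7 CPM in TauT+/+ and 34.5, 30.1 and 51.5 CPM in TauT-/- libraries. Of the 12 lower genes, 11 kept their sign and 7 (58.3%) were separated, a share at that of the 740 genes.

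Fxyd2 had 1.04 and 6.62 CPM in the shallow TauT+/+ libraries and 50.5, 69.5 and 79.3 CPM in the TauT-/- ones, a log2 fold change of 4.09. Aldh1a1 had 34.4 and 9.80 CPM against 2.06, 6.89 and 2.28 CPM, a log2 fold change of -2.57. Lgmn had 249 and 242 CPM against 598, 591 and 694 CPM. All 3 genes were separated in both sets of libraries. Nbeal1 was the gene with the opposite sign, at 0.10 (58.9 and 52.6 CPM against 38.6, 70 and 70.8 CPM). The test of the difference between the depths, over 13 libraries, called 0 of 19021 genes by edgeR (0%), with 475 at an unadjusted p under 0.05. DESeq2 called 3, the Y-linked genes Ddx3y, Eif2s3y and Uty, which were named after their values were seen. Female WT3 was the only one of the 5 shallow libraries with reads of them.

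**Figure D3:**
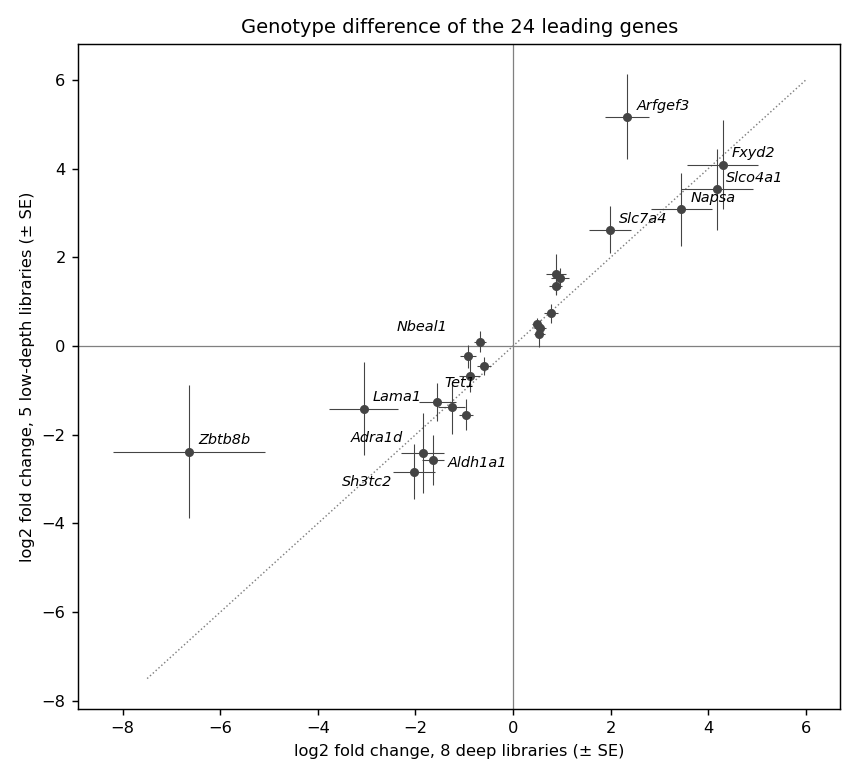
Log2 fold change, TauT-/- minus TauT+/+, of the 24 leading genes in the 8 deep libraries (horizontal) and in the 5 low-depth libraries without a twin (vertical), with standard errors and a dotted line of equality. All but Nbeal1 lie in the lower left or upper right, where both signs are the same, Arfgef3 lies above the line at 5.17 and Zbtb8b far to its left at -6.64.

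Macrophage genes and their surface receptors were measured next, because the study describes inflammatory genes and because CD45+ cells had been depleted from the cultures. Over all 16779 genes tested, 8122 were higher in TauT-/- and 8657 lower, with 3.86% higher and 3.75% lower at an unadjusted p under 0.05. Separation was upward in 2.58% and downward in 1.83%, and these shares stand beside every list below. Of 23 macrophage genes tested, 21 were higher in TauT-/- and 2 lower, with 6 higher and 0 lower at an unadjusted p under 0.05. The median log2 fold change was 1.04 beside -0.015 for all genes. That median was 1.57 without the number 1 libraries and 0.69 without WT2. Cd68, a lysosomal membrane protein of macrophages, had 232, 36.7, 151 and 99.6 CPM in TauT+/+ and 301, 359, 311 and 461 CPM in TauT-/- libraries (log2 fold change 1.47 ± 0.48). Fcer1g, the Fc receptor gamma chain, had 165, 26.6, 116 and 72.0 CPM against 176, 227, 238 and 346 CPM (1.38 ± 0.50). C1qa, a chain of complement C1q, had 426, 81.1, 363 and 251 CPM against 437, 594, 540 and 662 CPM (0.99 ± 0.44). WT2 was the lowest library for each of these genes, and for Fcer1g and C1qa the genotypes were only just separated. Fcgr1 was separated as well, at 0.731 to 5.58 CPM against 8.10 to 13.7 CPM. The most abundant markers overlapped, with 731 to 5830 CPM against 2890 to 11500 CPM for Lyz2 (lysozyme) and 117 to 703 CPM against 415 to 1280 CPM for Csf1r, the receptor of macrophage colony-stimulating factor.

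The summed level of the 23 macrophage genes was 1570 to 9950 CPM in TauT+/+ and 7200 to 17900 CPM in TauT-/- libraries, and all 23 were measured above 0. Ptprc, which encodes CD45 itself, had 175, 28.2, 144 and 81.7 CPM in TauT+/+ and 111, 174, 222 and 373 CPM in TauT-/- libraries, so transcripts of the depleted cells were present in every library of both genotypes. The genotypes overlapped for Ptprc, with KO1 under WT1 and WT3. In bulk RNA a larger share of macrophages and more of each transcript per cell cannot be told apart. The mean log2 level of the list was 6.17 ± 1.15 in TauT+/+ and 7.22 ± 0.40 in TauT-/- libraries (SD, n = 4 each). The part these cells play in the other differences was not tested.

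Chemokine and SLAM-family receptors, which immune cells use to migrate and to contact each other, showed the highest list median, 1.73 over 13 genes tested. There were 12 higher and 1 lower, with 6 higher and 1 lower at an unadjusted p under 0.05 and 4 separated upward. The shares over all genes were 3.86% higher and 3.75% lower at that p and 2.58% separated upward. Slamf7, a SLAM-family receptor, had 1.40, 0.0674, 1.12 and 0.790 CPM in TauT+/+ and 7.94, 5.35, 5.01 and 24.4 CPM in TauT-/- libraries. KO4 stood apart from the other TauT-/- libraries, and the log2 fold change was 3.66 ± 0.91 with all libraries and 2.85 without KO4. DESeq2 called Slamf7 (adjusted p = 0.00356). Cd244a, a SLAM receptor of natural killer cells, had 0.315 to 3.65 CPM against 5.79 to 17.1 CPM (2.36 ± 0.74). Cd48, its ligand, had 3.70 to 25.8 CPM against 26.5 to 54.3 CPM (1.30 ± 0.54), with WT1 just under KO1. Ccr1, a chemokine receptor, had 1.63, 0.798, 5.96 and 3.28 CPM against 16.2, 25.7, 17.5 and 3.13 CPM (2.42 ± 0.76). The genotypes overlapped for Ccr1 through KO4. Ccr2 was at 0.0112 to 0.145 CPM in TauT+/+ and at 0.364 to 0.436 CPM in 3 TauT-/- libraries, and KO2 alone had 20.3 CPM. The summed level of the receptors was 57.1 to 256 CPM against 263 to 692 CPM, with WT3 and KO1 nearest to each other. As with the macrophage genes, the sum was lowest in WT2.

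Markers of other blood and vessel cells differed widely in level. The summed level of 10 lymphocyte genes was at most 0.941 CPM in TauT+/+ and 2.22 CPM in TauT-/- libraries, and Cd3e, Cd3g and Cd8a had no reads in the 8 libraries. Neutrophil genes summed to 8.87 to 21.3 CPM against 3.56 to 36.1 CPM, and erythroid and megakaryocyte genes to 17 to 69 CPM against 11.7 to 54.3 CPM, most of it Pf4. Osteoclast genes were the highest of these lists, with sums of 143 to 554 CPM against 109 to 906 CPM, and WT3 and KO3 were the highest library of their genotype. Mmp9, a matrix protease of osteoclasts and other cells, had 331 CPM in WT3 and 471 CPM in KO3 and at most 124 CPM in the other libraries. Pf4 and Mmp9 were named after their values were seen. Endothelial genes summed to 12.5 to 20.7 CPM against 13.9 to 139 CPM. Of these, Pecam1, which encodes the depleted antigen CD31, was at most 1.72 CPM in TauT+/+ and 1.96 CPM in TauT-/-, and Flt1 made up most of the sum in KO2 with 119 CPM. The mean log2 level of the endothelial list was separated by genotype at 0.56 ± 0.13 and 1.06 ± 0.39 (SD, n = 4 each). The nearest libraries were WT3 and WT4 at 0.63 and KO3 at 0.64.

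**Figure D4:**
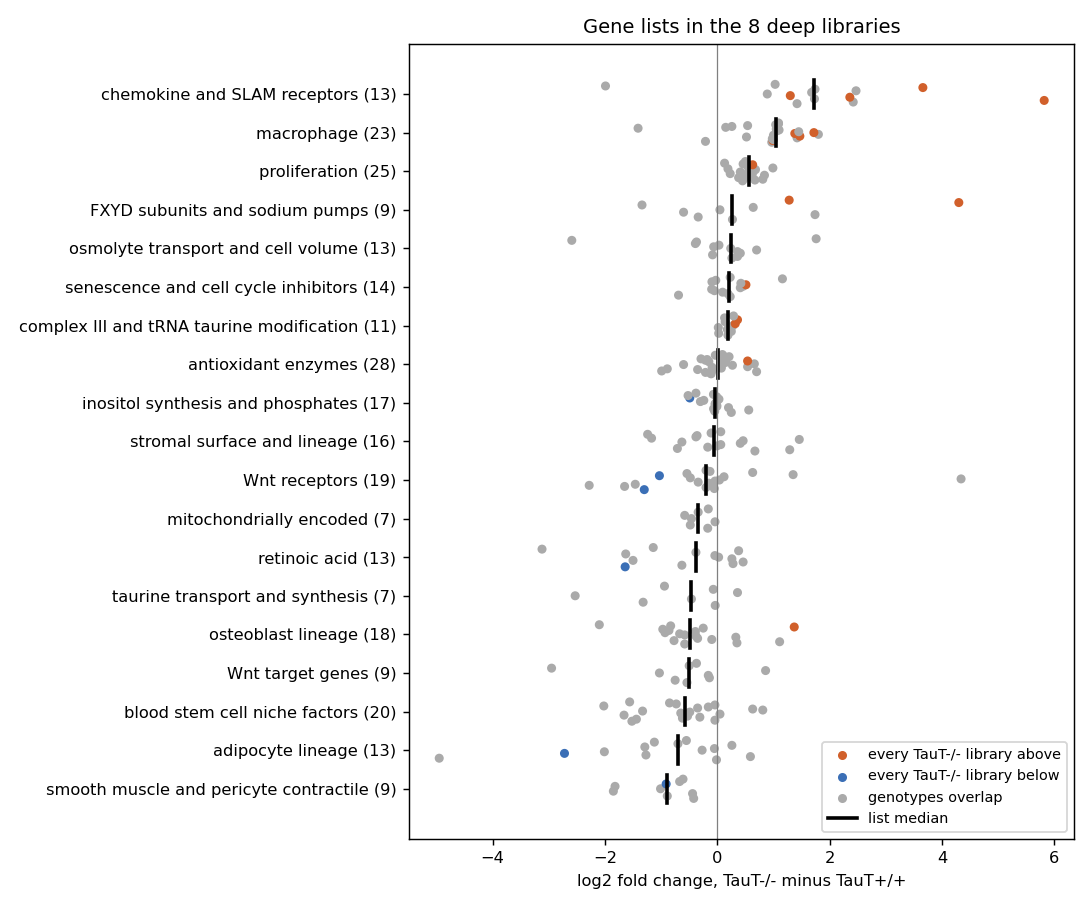
Log2 fold change, TauT-/- minus TauT+/+, of each tested gene in 19 lists (points, number of genes in brackets) with the list median (black bar); orange and blue points are genes whose 4 TauT-/- libraries all lie above or below the 4 TauT+/+ libraries. The receptor and macrophage medians are 1.73 and 1.04, the smooth muscle median is -0.89, and most points are grey.

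Stromal identity genes were measured to describe the labelled cell type. Itgb1 (CD29) had 1220 to 2300 CPM in TauT+/+ and 1430 to 1830 CPM in TauT-/- libraries, and Pdgfrb had 434 to 901 CPM against 359 to 770 CPM. Other members were far from uniform between libraries. Eng (CD105) had 10.7 to 438 CPM against 4.38 to 368 CPM, and Thy1 had 11.5 to 411 CPM against 4.13 to 177 CPM. Both were named after their values were seen. The stromal list had a median of -0.056 over 16 genes, 7 higher and 9 lower, and the median ran from -0.19 without KO2 to 0.10 without KO1. The collagens and other matrix genes summed to 65300 to 82500 CPM against 38200 to 90500 CPM, so the fibroblastic transcripts were abundant throughout. Col8a1, a network-forming collagen, was the one member of that list that DESeq2 called (log2 fold change -2.29, adjusted p = 0.04), and it was named after its value was seen.

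The blood stem cell niche list holds secreted factors beside membrane proteins and transcription factors. It had a median log2 fold change of -0.58, with 17 of 20 lower and 0 in either direction at an unadjusted p under 0.05. The median was -0.27 without WT2. Kitl (stem cell factor) had 454, 563, 23.0 and 102 CPM in TauT+/+ and 184, 47.8, 19.6 and 30.8 CPM in TauT-/- libraries (log2 fold change -2.02 ± 1.03). Hgf (hepatocyte growth factor) had 115, 231, 27.0 and 55.1 CPM against 41.3, 77.7, 36.4 and 14.8 CPM (-1.33 ± 0.70). Fgf2 had 20.4, 51.6, 95.3 and 23.1 CPM against 2.49, 15.2, 39.6 and 2.88 CPM (-1.66 ± 0.93). The genotypes overlapped for each of these genes. Single libraries moved the values, Kitl to -3.13 without KO1, Hgf to -0.65 without WT2, and Fgf2 to -2.79 without KO3 and -1.07 without WT3. The spread within TauT+/+ was wide for Kitl, where WT3 lay below KO1, KO2 and KO4. With the replicate number as a block, the unadjusted edgeR p was 0.0267 for Kitl, 0.0359 for Hgf and 0.00121 for Fgf2. The adjusted p was 0.513 for each, and the pairing was an assumption drawn from these same data. Unadjusted edgeR p also fell under 0.05 with the block for Tnfsf11 (0.0738 to 0.048), Cebpa (0.121 to 0.0471) and Hmox1 (0.264 to 0.039). For Ccr2 it rose from 0.00874 to 0.11. In that fit 824 of 16779 genes were lower at an unadjusted p under 0.05. Hgf was higher in KO3 than in WT3, and Kitl differed little between them, at 19.6 against 23.0 CPM.

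Cxcl12, the chemokine that retains stem cells in the marrow, varied widely within both genotypes. It had 22900, 21100, 811 and 2270 CPM in TauT+/+ and 13900, 946, 843 and 1630 CPM in TauT-/- libraries, with WT1, WT2 and KO1 far above the other 5 (log2 fold change -1.44 ± 1.28). The value was -2.83 without the number 1 libraries, -3.37 without KO1 and -0.90 without WT1. Csf1 was level, at 1060 to 1590 CPM against 924 to 1600 CPM (-0.042 ± 0.23). The summed niche list, most of which is Cxcl12, was 3450 to 26000 CPM against 2990 to 16600 CPM.

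**Figure D5:**
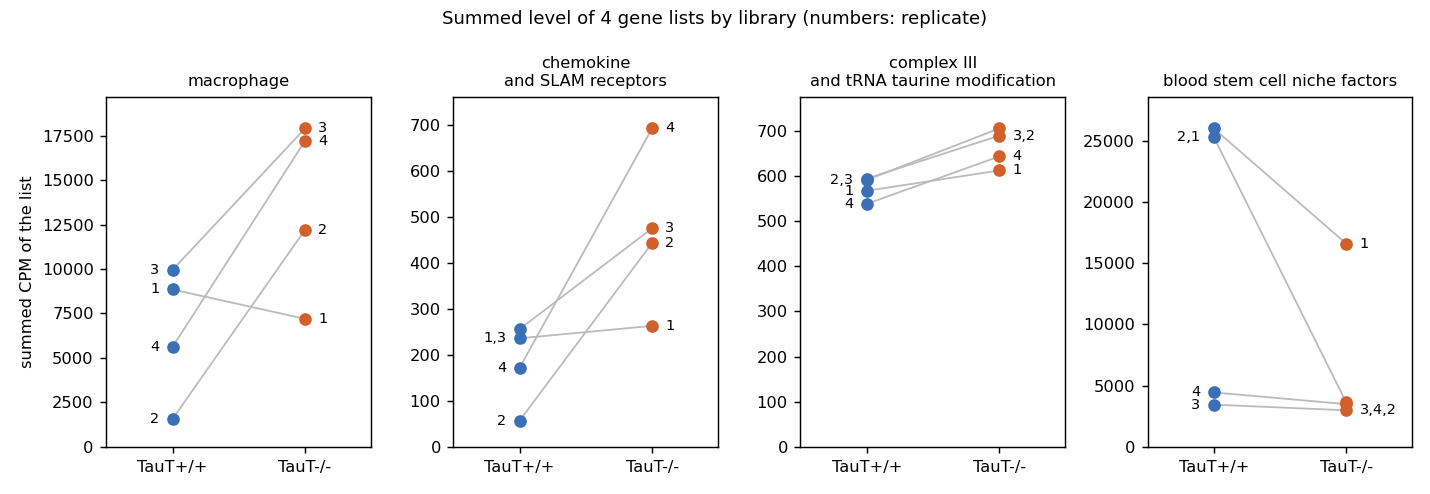
Summed CPM of 4 gene lists in each deep library, blue TauT+/+ and orange TauT-/-, with lines joining libraries of the same replicate number. The receptor and complex III sums are separated by genotype (57.1 to 256 against 263 to 692 CPM, and 538 to 594 against 612 to 705 CPM), the macrophage sums overlap and fall from WT1 to KO1, and the niche sums of WT1, WT2 and KO1 lie far above the others.

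Genes of the osteoblast lineage had a median of -0.48, with 14 of 18 lower, and the median ran from -0.99 without KO3 to -0.26 without WT2. Runx2, the master regulator of the osteoblast fate, had 49.0, 73.2, 57.3 and 48.2 CPM in TauT+/+ and 54.8, 34.3, 43.7 and 41.0 CPM in TauT-/- libraries (log2 fold change -0.39 ± 0.19), overlapping through KO1, and the value was -0.60 without the number 1 libraries. Spp1 (osteopontin, made by osteoblasts and by macrophages) went the other way, with 7100, 1390, 4020 and 4600 CPM against 9860, 9190, 8860 and 16200 CPM (1.37 ± 0.50). It was separated by genotype, with KO4 highest and WT2 lowest. The regulators of osteoclasts overlapped. Tnfsf11 (Rankl) had 65.7, 49.1, 7.23 and 5.82 CPM against 11.5, 3.60, 13.9 and 0.826 CPM (-2.10 ± 1.03), and Tnfrsf11b (osteoprotegerin, its decoy receptor) had 87.4 to 407 CPM against 47.9 to 152 CPM (-0.83 ± 0.58), a difference of -0.11 without WT2.

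The adipocyte list had a median of -0.70, and -1.13 without KO1. In it 11 of 13 genes were lower, 3 of them at an unadjusted p under 0.05, beside 3.75% of all genes. Cebpa, a transcription factor of adipocytes, had 85.7 to 760 CPM in TauT+/+ and 58.9 to 264 CPM in TauT-/- libraries, and Lpl (lipoprotein lipase) had 69.2 to 2600 CPM against 81.5 to 1150 CPM. Both overlapped. Cfd (adipsin) was separated but at most 2.03 CPM in any library. Contractile genes of smooth muscle and pericytes were lower in 9 of 9, with a median of -0.89. Of these, Myl9 (myosin light chain) was separated, at 1100, 1000, 705 and 856 CPM against 602, 646, 568 and 125 CPM (-0.91 ± 0.46), while Acta2 and Tagln overlapped. KO4 was far below the others for all 3, and without KO4 the median was -0.49 and Myl9 -0.59.

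Wnt receptors held the genes of the Wnt pathway that separated the genotypes. At an unadjusted p under 0.05, 3 were lower and 1 higher, beside 3.75% and 3.86% of all genes. The higher one was Lgr5, which overlapped and was named after its values were seen. It had 2.01, 8.24, 1.29 and 15.8 CPM against 250, 294, 0.455 and 7.71 CPM (log2 fold change 4.34 ± 1.72). The list had a median of -0.20, with 14 of 19 lower. That median was -0.075 without WT3, -0.12 without KO4, -0.13 without WT2 and -0.11 with the replicate block. Fzd1, a Frizzled receptor, had 107, 227, 94.7 and 129 CPM in TauT+/+ and 72.7, 59.2, 65.6 and 29.6 CPM in TauT-/- libraries (log2 fold change -1.30 ± 0.36). Lrp6, the co-receptor, had 348, 244, 142 and 124 CPM against 98.8, 124, 92.9 and 104 CPM (-1.03 ± 0.32). For Lrp6 the separation was within rounding, since WT4 and KO2 both had 124 CPM, and the fold change was -0.68 without the number 1 libraries. In the 5 shallow libraries without a twin Fzd1 and Lrp6 were separated in the same direction. Fzd1 had 209 and 133 CPM against 105, 52.8 and 33.9 CPM. Lrp6 had 185 and 142 CPM against 138, 84.1 and 86.0 CPM, so its nearest libraries lay close together.

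Ligands and targets of the pathway were less clear. Wnt5a had 17.9 to 108 CPM against 9.10 to 89.9 CPM (0.24 ± 0.74) and Wnt10b 0.885 to 25.7 CPM against 8.16 to 25.7 CPM (0.37 ± 0.78), and without the number 1 libraries the values turned to -0.32 and -0.30. Ctnnb1 (beta-catenin) had 345 to 567 CPM against 417 to 489 CPM (-0.16 ± 0.19, and -0.37 without the number 1 libraries). The 9 Wnt target genes had a median of -0.50, which was 0.15 without WT3, -1.42 without KO3 and -0.14 with the replicate block.

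Taurine and other osmolytes form the group nearest to the transporter itself. Of 7 taurine transport and synthesis genes tested, 6 were lower and 1 higher, 1 of the lower ones at an unadjusted p under 0.05, with a median of -0.46 that was -0.17 without WT2, -0.21 without KO4 and -0.73 without KO1. Ado, which makes hypotaurine from cysteamine, was level at 37.4 to 60.2 CPM in TauT+/+ and 39.4 to 52.4 CPM in TauT-/- libraries. The osmolyte list had a median of 0.24 over 13 genes, which was 0.14 without the number 1 libraries, 0.087 without WT2 and 0.15 without WT1 or WT4. Slc5a3, the sodium/myo-inositol cotransporter that cells induce in hypertonic medium, had 419, 753, 33.0 and 46.5 CPM against 52.0, 100, 20.7 and 35.1 CPM (-2.59 ± 1.02, and -1.70 without WT2). WT1 and WT2 were high, and the genotypes overlapped. Slc5a3 was at -1.75 with the replicate block (edgeR adjusted p = 0.513). In the shallow libraries it was separated, at 337 and 96.7 CPM against 60.5, 16.9 and 20.6 CPM.

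The enzymes of inositol synthesis and inositol phosphates were close to level, with a median of -0.04 over 17 genes, 13 lower and 4 higher, and the median ran from -0.12 without WT4 to 0.032 without WT2. Itpkb, an inositol trisphosphate kinase, was separated at 56.9 to 83.8 CPM in TauT+/+ and 40.5 to 52.9 CPM in TauT-/- libraries (log2 fold change -0.49 ± 0.16), and it overlapped in the shallow ones. Cdipt, which makes phosphatidylinositol, had 65.2 to 99.1 CPM against 65.9 to 107 CPM.

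Sodium pump subunits were listed because TauT is driven by the sodium gradient. Of 9 tested, 6 were higher and 3 lower, and 4 were higher at an unadjusted p under 0.05, beside 3.86% of all genes. The 4 include Fxyd2, which was picked above from these same libraries for its small p. Beside Fxyd2, Fxyd5 (dysadherin, another pump regulator) was separated, with 199, 61.9, 177 and 131 CPM in TauT+/+ and 217, 379, 311 and 475 CPM in TauT-/- libraries (log2 fold change 1.28 ± 0.38). The list median of 0.27 was 0.16 without WT4, 0.43 without KO1, 0.45 without KO4, 0.74 without WT2, 0.82 without WT3 and 0.65 with the block.

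All 7 mitochondrially encoded genes tested had lower values in TauT-/-, with a median of -0.34, and 0 reached an unadjusted p under 0.05. mt-Cytb, the complex III subunit encoded in mitochondria, had 2140, 2400, 2780 and 3830 CPM in TauT+/+ and 2410, 2130, 1930 and 1530 CPM in TauT-/- libraries (log2 fold change -0.48 ± 0.27), and KO1 lay just above WT1 and WT2. WT4 was high for the whole group, and without WT4 the median was -0.11 and mt-Cytb -0.30, while the median was -0.53 without the number 1 libraries. Without WT4, mt-Co1 turned from -0.17 to 0.22. Of the 13 protein genes of the mitochondrial genome, 6 stayed under 1 CPM in all 8 libraries, and 4 of these had no reads. The list is therefore not complete. Whether reads of the other mitochondrially encoded genes were lost in counting as well was not tested.

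The nuclear subunits of complex III and the enzymes that place taurine on mitochondrial tRNA were higher in 11 of 11, by small amounts. The median was 0.19, and 2 of the 11, Uqcrfs1 and Uqcrc1, reached an unadjusted edgeR p under 0.05. Several members were close to level, among them Uqcr11 (log2 fold change 0.018 ± 0.12) and Uqcrh (0.13 ± 0.22). Of the tRNA enzymes, Gtpbp3 was at 0.025 ± 0.18 and Mto1 at 0.25 ± 0.16, and both overlapped between genotypes. Uqcrfs1, the Rieske iron-sulfur protein, had 56.4, 48.2, 52.6 and 44.8 CPM in TauT+/+ and 72.9, 62.8, 60.5 and 63.0 CPM in TauT-/- libraries (log2 fold change 0.36 ± 0.12). Uqcrc1, a core protein, had 80.9, 90, 106 and 92.7 CPM against 114, 121, 116 and 110 CPM (0.32 ± 0.12). Both were separated, and both were separated in the same direction in the 5 shallow libraries. The summed list was 538 to 594 CPM against 612 to 705 CPM.

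Oxidative stress, senescence and proliferation genes were compared last. The 28 antioxidant genes had a median of 0.0097, 14 higher and 14 lower, between -0.082 without WT4 and 0.13 without WT3. Prdx5, a peroxiredoxin, was separated at 352, 309, 284 and 235 CPM in TauT+/+ and 453, 377, 445 and 440 CPM in TauT-/- libraries (log2 fold change 0.54 ± 0.17), while Hmox1 overlapped at 158 to 690 CPM against 398 to 890 CPM. In the senescence list, Glb1, which encodes the lysosomal beta-galactosidase used as a senescence stain, was separated at 78.5, 97.8, 96.6 and 88.3 CPM against 146, 98.9, 126 and 144 CPM (0.51 ± 0.16), with KO2 just above WT2. Cdkn1a (p21) had 189 to 469 CPM against 301 to 461 CPM (0.23 ± 0.29, and 0.050 without WT4 or 0.54 without WT3). The list median was 0.21 over 14 genes, 0.12 without the number 1 libraries or with the block, 0.086 without WT1, 0.10 without WT2 or WT4 and 0.37 without WT3.

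Proliferation genes were higher in 25 of 25, with a median of 0.56. Of these, 2 reached an unadjusted p under 0.05, beside 3.86% of all genes that were higher at that p. The median was 1.00 without WT3 and 0.37 without WT2 or WT4. Pcna, the sliding clamp of DNA replication, had 49.2, 38.2, 49.7 and 35.1 CPM in TauT+/+ and 58.4, 66.5, 61.1 and 79.6 CPM in TauT-/- libraries (log2 fold change 0.63 ± 0.17). Mki67 overlapped at 19.9 to 109 CPM against 58.0 to 109 CPM. The mean log2 level of the list was 4.10 ± 0.64 against 4.71 ± 0.33 (SD, n = 4 each).

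Retinoic acid genes, the list that holds Aldh1a1, had a median of -0.38 over 13 genes with 3 lower and 0 higher at an unadjusted p under 0.05. Aldh1a1, picked above from these same libraries for its small p, was among the 3 lower and was the only member without overlap. Its relative Aldh1a2 had 86.7 to 1220 CPM in TauT+/+ and 164 to 1290 CPM in TauT-/- libraries, and Dhrs3, a retinaldehyde reductase, had 135 to 248 CPM against 160 to 205 CPM. The list median was -0.91 without KO3, -0.21 without WT2 and -0.15 without WT4.

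The neighbours of Slc6a6 were examined because a knockout allele can carry flanking sequence of another strain. Of 80 genes tested within 5 Mb on chromosome 6, 1 was higher and 4 were lower at an unadjusted p under 0.05. The shares over all genes tested were 3.86% and 3.75%. Among the 80, 1 was separated upward and 2 downward, beside 2.58% and 1.83% of all genes. The median log2 fold change was -0.11, beside -0.015 for all genes.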

How the data were processed

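Bulk RNA was sequenced from MSC cultures of TauT+/+ and TauT-/- mice, in 15 libraries grouped by their labels. Per the labels, the study's methods and the submitters' processing notes, 1 ng of total RNA was primed with oligo-dT and amplified by PCR with no molecular identifiers named. The paired reads of 150 nt were filtered with fastp 0.23.1, mapped to GRCm39 (GENCODE M31) with STAR 2.7.9a and assigned to genes with featureCounts of Subread 2.0.1, set to reverse strand. The deposited values are raw whole-number counts that the authors made for 56832 genes, without normalization, and 0 columns had no sample.

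From these counts, the genotypes of the 8 libraries above 60000000 counts were compared by edgeR 4.0.16 under R 4.3.3 (filterByExpr by genotype, TMM, quasi-likelihood test, Benjamini-Hochberg adjustment, threshold 0.05). The 16779 genes that passed the filter had a biological coefficient of variation of 0.496. The study's model had sex and condition over all samples, and here all 8 libraries carry 1 sex label. CPM are counts per 1000000 of the TMM-scaled library size, and mean log2 levels used a pseudocount of 0.5. A fold change given with ± carries the standard error, and a mean with ± the SD. DESeq2 1.42.0 and limma 3.58.1 (voom with quality weights) were alternatives, beside upper-quartile normalization, 2 other filters, a replicate block, all 15 libraries, and fits without the number 1 libraries or each library in turn. DESeq2 without number 1, number 3 or each library, or with the block, and edgeR without number 3 were added after seeing the data. Depth was compared by an exact permutation test over 70 splits in Python 3.11.15, adjusted over 8 library measures. Positions and exon overlaps come from GENCODE M39 on GRCm39, matched by symbol for 97.6% of tested genes. The scripts were tested on simulated counts.

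The labels number the replicates but do not state that a number pairs WT with KO. Over 13130 genes, the deviations of same-numbered libraries from their genotype means correlated at 0.25, 0.26, 0.64 and 0.17 for numbers 1 to 4. These were the highest values for each library, so the numbers were taken to pair the samples. The pairing is thus an assumption drawn from these same data. Some margins were small, since KO1 correlated at 0.25 with WT1 and at 0.22 with WT2. The origin of the pairing is not given in the sources used here.

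Named are the genes the study names for its RNA-sequencing or mechanism, the 24 leading genes described in the text, and for each of 19 described lists up to 4 members without overlap and the 2 with the highest mean CPM. A gene that this rule also names is not reported here. Exceptions are said to be chosen after their values were seen or serve as markers (Xist, Ddx3y, Ptprc, Pecam1, Flt1 and lymphocyte genes). The members and the lists were chosen with earlier results of these data known, so no p is given for a list. Total counts were 69764291 to 101575071 in the deep libraries, and read counts carry PCR duplicates, so depth bounds counting error only.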

Additional observations from a re-analysis of the deposited data

Results flagged for a closer look

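Within a genotype of 4 libraries, 1 library was called apart when its gap to the nearest other, divided by the whole range, exceeded Dixon's critical value for 4 samples. Among 190 groups examined (the named genes and 8 library measures in each genotype), 12 exceeded it, where chance gives about 1 in 20, or 9.5. The genes overlap in function, so these groups are not independent.

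KO4 stood apart in 3 genes. Slamf7 was at 24.4 CPM (gap share 0.849) and Spp1 at 16200 CPM (0.864), both high, while Myl9 was low at 125 CPM (0.85). KO2 was high in Ccr2 at 20.3 CPM (0.996), and KO1 was high in Cxcl12 at 13900 CPM (0.94).

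WT2 was high in Cfd at 2.03 CPM (0.898) and in Tnfrsf11b at 407 CPM (0.835), and low in the mean log2 level of the endothelial genes at 0.359 (0.911). WT3 was high in Slc7a4 at 1.08 CPM (0.937) and in Itgb1 at 2300 CPM (0.917). WT1, whose Xist goes against its male label, was low in Ctnnb1 at 345 CPM (0.851) and had the highest share of ribosomal protein transcripts among TauT+/+ libraries, 2.98% (0.867).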

How the results depend on the processing

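edgeR and voom called 0 genes in either direction under each alternative. DESeq2 called 36 higher and 45 lower genes, 96 and 38 without the number 1 libraries, 73 and 132 without the number 3 libraries, and 167 and 271 with the replicate block. The cause of the difference between the tools was not tested. The block changed no edgeR call, with Slc6a6 at -0.83 and 760 higher and 824 lower genes at an unadjusted p under 0.05. The difference between depths gave 3 genes by DESeq2 and 0 by edgeR with 13, 15 or 11 libraries. Slc6a6 ran from -1.29 to -0.53 with 1 library left out. All 24 leading genes kept their sign throughout. They were picked for full separation of the genotypes, which all but fixed that outcome when libraries were left out. Of the 87 named genes, 13 changed sign at least once. Wnt5a was -0.32, Wnt10b -0.30, Ado 0.012 and the number of genes with at least 10 counts -96.7 (TauT-/- minus TauT+/+) without the number 1 libraries. Ip6k1 was 0.0016 with no filter and 0.0091 with the block. Ryk was 0.054, Csf1 0.038, Sparc 0.052 and Dhrs3 -0.012 with voom. With 1 library left out, log2 fold changes ran from -0.046 to 0.98 for Wnt5a, -0.021 to 0.90 for Wnt10b, -0.17 to 0.074 for Ado, -0.12 to 0.064 for Ip6k1, -0.29 to 0.022 for Ryk, -0.37 to 0.063 for Ccnd1, -0.19 to 0.089 for Csf1, -0.72 to 0.025 for Sparc, -0.059 to 0.33 for Itgb1, -0.50 to 0.77 for Rrm2, -0.35 to 0.22 for mt-Co1, -0.035 to 0.24 for Uqcrh and -0.096 to 0.18 for Dhrs3. The difference in genes with at least 10 counts ran from -151 to 269 and that in the mitochondrially encoded share from -0.459 to 0.0924 percentage points. With at least 69764291 counts a library, the spread between libraries was far larger than counting error, with a biological coefficient of variation of 0.496.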

Other observations

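Other gene groups of the deep libraries were measured with the same fit. Immediate early genes, which cells switch on within minutes of a stimulus, had a median log2 fold change of -0.95, with 8 of 10 lower in TauT-/- and 0 at an unadjusted p under 0.05. The median was -0.51 without the number 1 libraries. Fos had 528, 516, 63.0 and 33.7 CPM in TauT+/+ libraries 1 to 4 and 35.9, 147, 82.2 and 11.3 CPM in TauT-/- libraries, and Egr1 had 1070, 898, 219 and 91.3 CPM against 220, 294, 217 and 18.2 CPM. WT1 and WT2 were thus above the other 6 libraries for both genes, while WT3 and WT4 lay within the TauT-/- range. Interferon-stimulated genes had a median of -0.53, with 15 of 19 lower and Oas1a the 1 higher at an unadjusted p under 0.05 (2.22 to 5.88 CPM against 4.67 to 13.1 CPM). Among cytokines, with a median of 0.34 that was 0.83 without the number 1 libraries and 0.72 with the replicate block, Ccl2, which attracts monocytes, had 223, 85.1, 137 and 174 CPM against 363, 522, 203 and 217 CPM, and Il1rn, the antagonist of the interleukin-1 receptor, had 37.2 to 1290 CPM against 90.4 to 127 CPM. HOX genes had a median of -0.34, with 21 of 28 lower and 1 of them at an unadjusted p under 0.05.

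Plagl1, an imprinted zinc finger gene of growth control, was separated with 6.76, 52.5, 8.15 and 6.19 CPM in TauT+/+ and 0.932, 1.72, 2.62 and 0.172 CPM in TauT-/- libraries (log2 fold change -3.75 ± 1.03). Without WT3, which with KO3 was the closest pair of different genotype, Adarb1, an RNA-editing adenosine deaminase, and Carmn, a smooth muscle long noncoding RNA, had the lowest edgeR adjusted p of that fit, 0.0626 each. Adarb1 had 108, 112, 19 and 76.0 CPM in TauT+/+ and 13.7, 20.6, 13.4 and 18.2 CPM in TauT-/- libraries, and Carmn had 59.0, 41.2, 6.31 and 46.6 CPM against 6.72, 7.04, 4.89 and 3.48 CPM. For both, WT3 alone of the TauT+/+ libraries lay within the TauT-/- range. The genes in these paragraphs were named after their values were seen.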
